A study of Homo sapiens with 9 samples.

Results

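The hexosamine pathway and O-GlcNAc cycling genes described here are GFPT1, GFPT2, GNPNAT1, PGM3, UAP1, OGT and OGA, which are 7 of the 15570 genes in the deposited expression table. They were taken by symbol, and all 7 were found. They were selected on results of these same libraries, among them the log2 fold change of OGA in OGD against control, which was among the largest, and which other values weighed in is not recorded, so the values of the 7 genes are given as a description with no test. All 7 passed the filter on low values.

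The hexosamine pathway branches from glycolysis at fructose 6-phosphate and ends at UDP-GlcNAc, the sugar donor for glycan synthesis and for O-GlcNAc, a single sugar on serine and threonine of nuclear and cytosolic proteins. It draws on glucose, glutamine, acetyl-CoA and UTP, and is often described as a sensor of nutrient supply. OGT adds the O-GlcNAc sugar and OGA removes it. In cultured human cells the messages of OGT and OGA are known to respond to the O-GlcNAc level, in part through introns kept in nuclear transcripts, a difference that values per gene do not resolve.

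The 9 RNA libraries came from hCMEC/D3, a human endothelial line derived from brain microvessels that serves in culture as a stand-in for the blood-brain barrier. OGD/R cells (n = 3) spent 4 h in oxygen and glucose deprivation and then 16 h in normal medium at 21% O2 and 5% CO2. OGD cells (n = 3) were taken after 4 h in medium without glucose under 95% N2 and 5% CO2, and control cells (n = 3) were not deprived. The labels name no genetic change in any group, the whole study rests on 1 line, and the labels give no control kept in culture for the additional 16 h. Whether replicates came from separate cultures is not said, so p-values reflect no more than the spread among these samples, and that spread may be technical.

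Values are FPKM, sequenced fragments scaled to transcript length and to the mapped fragments of the library, as the authors deposited them. The FPKM values of a library summed to between 442696 and 449248 in OGD/R, between 585947 and 605818 in OGD and between 454237 and 537878 in control, and the depth in reads is unknown. Of the 15570 genes, 10818 were tested, and the median of their log2 fold changes was 0.39 when OGD/R was set against OGD, -0.31 when OGD was set against control and 0.07 between OGD/R and control. For the 7 genes, fold changes are therefore also given relative to this median. Expression also varied with transcript length, with a slope between 0.13 and 0.227 in OGD/R, between -0.199 and -0.149 in OGD and between -0.0731 and 0.051 in control (log2 units relative to the mean of all libraries, per doubling of length), and the part of length in the results was tested only by removing this trend. Control replicate 3 lay at 7.05 on the first principal component, on the side of the OGD libraries (41.6 to 46.2), while the other control libraries lay at -14.5 and -9.97. Of 11 endothelial markers in the table, 4 reached 1 FPKM in 3 libraries, and VWF, KDR and TEK were below 0.1 FPKM in every library. The summed endothelial markers were 36.3 to 46.6 FPKM in OGD/R, 8.55 to 9.44 in OGD and 15.5 to 21.1 in control, and the summed fibroblast markers 51.9 to 69.2 in OGD/R, 9.17 to 10.7 in OGD and 20.4 to 28.2 in control. Few genes carry these sums. ENG averaged 33.7 FPKM in OGD/R, 6.65 in OGD and 13.8 in control, COL1A1 29.3, 2.24 and 6.29 FPKM and COL1A2 26.9, 4.2 and 12.2 FPKM in the same order, while LUM averaged 3.41 FPKM in OGD/R, 3.4 in OGD and 4.35 in control. Pericyte and smooth muscle markers summed to 17.1 to 19.5 FPKM in OGD/R, 6.14 to 7.71 in OGD and 10.2 to 13.7 in control. Epithelial markers, at 238 to 256, 130 to 139 and 166 to 201 FPKM, had the same order. Brain endothelial transport markers and microglia and leukocyte markers were highest in OGD/R, with OGD not below control. Neuron markers were highest in OGD, at 21.9 to 23.6 FPKM, and astrocyte markers summed to at most 0.587 FPKM. The part of these markers in the results was not tested. In bulk RNA, fewer cells of a type and less RNA per cell cannot be told apart.

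The 7 genes did not move as a block. OGA was about 5.0-fold lower in OGD than in control and back above control in OGD/R, UAP1 was 1.49-fold higher in OGD than in control and near control in OGD/R, and the genes at the entry of the pathway and OGT were highest in OGD/R. These ratios and this order are of mean FPKM without further scaling. Relative to the median gene, OGD/R differed from OGD by 0.52 for GFPT2, 0.10 for OGT and 0.01 for GFPT1 on the log2 scale. With the length trend removed, the values were 0.63, -0.24 and -0.43 in the same order.

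**Figure D1:**
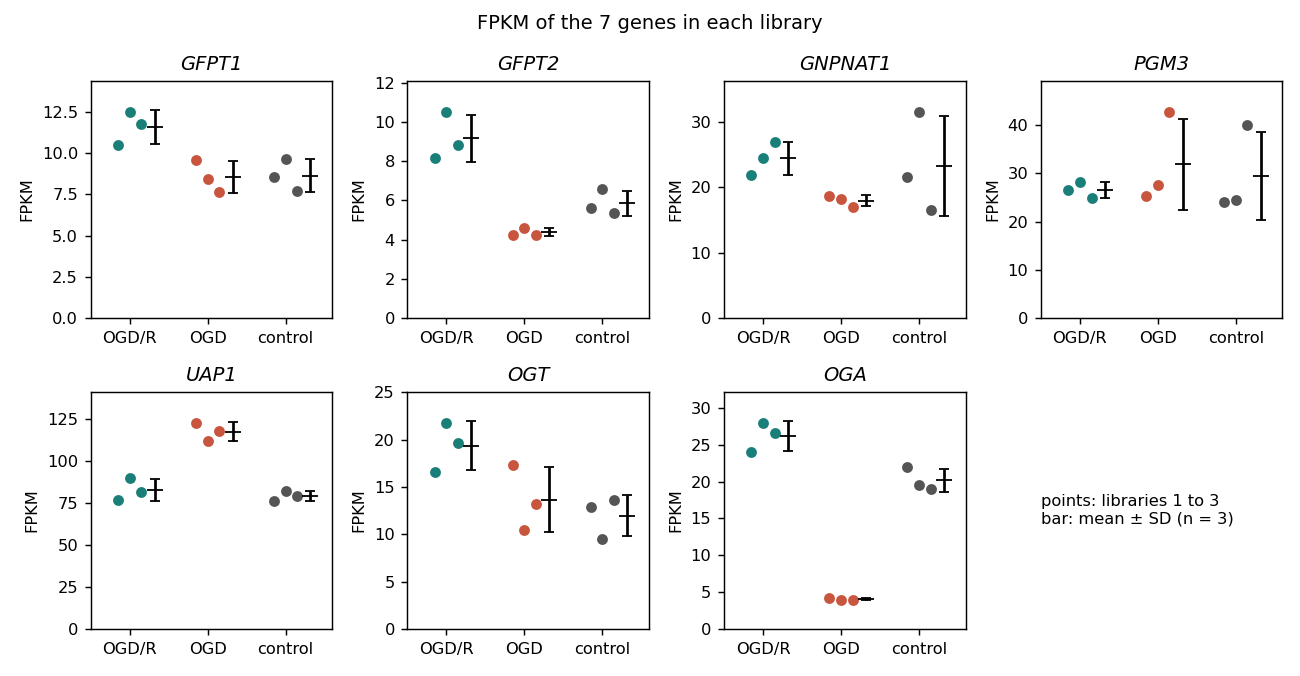
FPKM of each of the 7 genes (vertical axis, from 0) in OGD/R, OGD and control libraries, with 1 point per library and the mean ± SD beside the points (n = 3 each). OGA lies near 4 FPKM in the 3 OGD libraries, below all others, and UAP1 lies at 112 to 123 FPKM in OGD, above all others.

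GFPT1 and GFPT2 are the glutamine-fructose-6-phosphate transaminases, which carry out the first and rate-limiting step. GFPT1 (chromosome 2, 69319780 to 69387227, GRCh38.p14) had 10.5, 12.5 and 11.8 FPKM in OGD/R, 9.56, 8.44 and 7.62 FPKM in OGD and 8.56, 9.66 and 7.7 FPKM in control. The OGD/R libraries were above all others, and OGD and control overlapped. Set against OGD, OGD/R had a log2 fold change of 0.40 ± 0.13 (SE), and set against control 0.39 ± 0.13, while OGD against control gave -0.01 ± 0.13. Relative to the median gene these were 0.01, 0.32 and 0.29, so for GFPT1 the difference between OGD/R and OGD was no larger than that of the median gene. With the length trend removed the 3 values were -0.43, 0.06 and 0.48, and GFPT1, with a longest transcript of 8703 bases, is the longest of the 7.

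GFPT2, the second isoenzyme, lies on chromosome 5 (180300698 to 180353336). It had 8.16, 10.5 and 8.8 FPKM in OGD/R, 4.26, 4.61 and 4.25 FPKM in OGD and 5.61, 6.57 and 5.38 FPKM in control, and no 2 groups overlapped. On the log2 scale OGD/R lay 0.91 ± 0.13 above OGD and 0.56 ± 0.13 above control, or 0.52 and 0.50 relative to the median gene. For OGD against control it was -0.35 ± 0.13, which was -0.04 relative to the median gene and 0.04 after quantile normalization.

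The balance of the isoenzymes can be read within a library, where the scaling of the library cancels but the length trend does not. The ratio of GFPT2 to GFPT1 in FPKM was 0.789 ± 0.0492 in OGD/R, 0.517 ± 0.0617 in OGD and 0.678 ± 0.0221 in control (SD, n = 3 each). The ranges were 0.744 to 0.842 in OGD/R, 0.446 to 0.558 in OGD and 0.655 to 0.699 in control. GFPT2 was thus below GFPT1 in all 9 libraries, and the 3 groups did not overlap, with OGD lowest. GFPT2, with a longest transcript of 3093 bases, is much shorter than GFPT1, and removing the length trend set the genes further apart in OGD/R against OGD, with log2 fold changes of 0.63 for GFPT2 and -0.43 for GFPT1.

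GNPNAT1, which acetylates glucosamine 6-phosphate, lies on chromosome 14 (52775193 to 52791607). It had 21.9, 24.5 and 26.9 FPKM in OGD/R, 18.7, 18.2 and 17.0 FPKM in OGD and 21.6, 31.5 and 16.6 FPKM in control. The control libraries spread over both other groups. OGD/R differed from OGD by 0.42 ± 0.18 and OGD from control by -0.30 ± 0.18 on the log2 scale, which were 0.03 and 0.00 relative to the median gene. OGD/R differed from control by 0.11 ± 0.18, or 0.05 relative to the median gene.

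PGM3, the mutase that makes GlcNAc 1-phosphate, lies on chromosome 6 (83148705 to 83193900). It overlaps DOP1A and RWDD2A, and whether counting used strand is not given in the sources used here, so reads may be shared. PGM3 had 26.5, 28.2 and 24.8 FPKM in OGD/R, 25.3, 27.5 and 42.7 FPKM in OGD and 24.0, 24.4 and 40.0 FPKM in control. A single library was high in OGD and in control, replicate 3 in each case, and all 3 groups overlapped. The log2 fold change was -0.22 ± 0.20 for OGD/R against OGD, -0.11 ± 0.20 for OGD/R against control and 0.11 ± 0.20 for OGD against control. Relative to the median gene these were -0.61, -0.18 and 0.42, and with the length trend removed -0.86, -0.35 and 0.51, so the size of the PGM3 difference depended on scaling.

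UAP1, which joins GlcNAc 1-phosphate to UTP and so makes UDP-GlcNAc, lies on chromosome 1 (162561531 to 162601240). It had 77.0, 89.8 and 81.6 FPKM in OGD/R, 123, 112 and 118 FPKM in OGD and 76.5, 82.0 and 79.2 FPKM in control. All 3 OGD libraries lay above the other 6, and OGD/R and control overlapped. The log2 fold change was -0.51 ± 0.08 for OGD/R against OGD, 0.06 ± 0.08 for OGD/R against control and 0.57 ± 0.08 for OGD against control, or -0.89, -0.01 and 0.88 relative to the median gene. By size of the fold change UAP1 was 620th highest of 10818 genes in OGD against control.

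OGT, the O-GlcNAc transferase, lies on chromosome X (71533104 to 71575892). It had 16.6, 21.8 and 19.7 FPKM in OGD/R, 17.3, 10.5 and 13.2 FPKM in OGD and 12.9, 9.46 and 13.6 FPKM in control. OGD/R lay above control in every library, while OGD overlapped both. On the log2 scale OGD/R lay 0.49 ± 0.18 above OGD and 0.65 ± 0.18 above control, and OGD lay 0.16 ± 0.18 above control. Relative to the median gene these were 0.10, 0.59 and 0.47, and with the length trend removed the first was -0.24.

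OGA, the O-GlcNAc hydrolase, lies on chromosome 10 (101784450 to 101818444). It had 24.0, 28.0 and 26.6 FPKM in OGD/R, 4.19, 3.98 and 3.91 FPKM in OGD and 22.0, 19.5 and 19.0 FPKM in control. The 3 OGD libraries lay close together and far below the other 6, and the OGD/R libraries lay above control. The log2 fold change was 2.43 ± 0.10 for OGD/R against OGD, 0.36 ± 0.10 for OGD/R against control and -2.07 ± 0.10 for OGD against control, or 2.04, 0.30 and -1.76 relative to the median gene. OGA was 5th lowest of 10818 genes in OGD against control and 20th highest in OGD/R against OGD. Over 18 alternative settings its log2 fold change ranged between 1.88 and 2.67 for OGD/R against OGD and between -2.29 and -1.67 for OGD against control. Between OGD/R and control it ranged between 0.17 and 0.42.

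**Figure D2:**
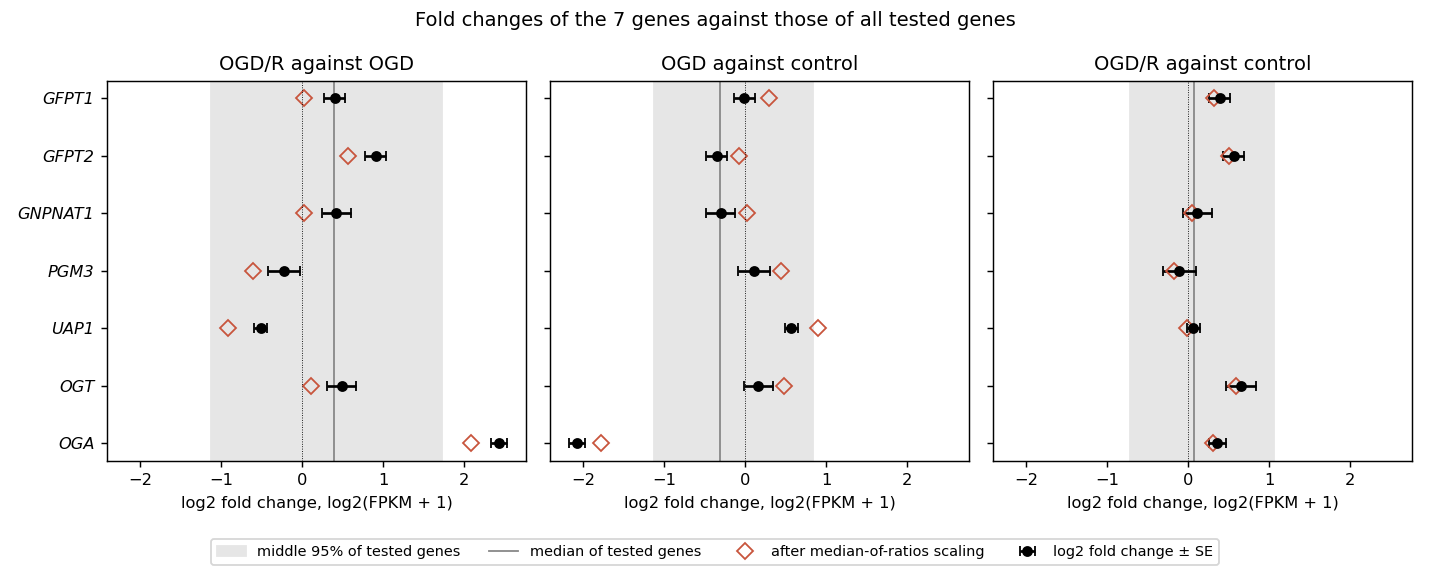
Log2 fold change of each gene (horizontal axis, log2 of FPKM + 1) in the 3 comparisons, as points with SE and, as open diamonds, after median-of-ratios scaling, over the range of the middle 95% of tested genes (grey) and their median (line). OGA lies outside the grey range in OGD/R against OGD (2.43) and in OGD against control (-2.07), and the points of the other 6 genes lie inside it.

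The counts of the 7 genes past the test used for all genes, limma with Benjamini-Hochberg adjustment at 0.05, are given beside the share of all tested genes, and nothing is read from them because earlier results guided the choice. In OGD/R against OGD 6 of the 7 were called, 5 higher and 1 lower, where 70.7% of all tested genes were called, 53.3% higher and 17.4% lower. With median-of-ratios scaling 3 of the 5 higher values were near 0, at 0.11 for OGT, 0.03 for GFPT1 and 0.03 for GNPNAT1. In OGD against control 3 were called, 1 higher and 2 lower, against 58% of all tested genes, 11.3% higher and 46.7% lower. In OGD/R against control 4 were called, all higher, against 41.2% of all tested genes, 24.7% higher and 16.5% lower. The groups did not overlap for 5, 3 and 4 of the 7 genes in these comparisons, against 78.2%, 65.1% and 47.8% of tested genes. The comparisons share samples.

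The levels were ordered within a group by mean FPKM. FPKM is scaled to length, but the length trend does not cancel between genes, and its part in the order was not tested. UAP1 was the highest of the 7 in every group and stood 929th of 15570 genes in OGD/R, 693rd in OGD and 1038th in control by mean FPKM. In OGD/R the order was UAP1, PGM3, OGA, GNPNAT1, OGT, GFPT1 and GFPT2. PGM3, OGA and GNPNAT1 overlapped their neighbours there, and so did GFPT1 and GFPT2. In OGD it was UAP1, PGM3, GNPNAT1, OGT, GFPT1, GFPT2 and OGA, where of neighbours GNPNAT1 and OGT overlapped. In control it was UAP1, PGM3, GNPNAT1, OGA, OGT, GFPT1 and GFPT2, with overlap among PGM3, GNPNAT1 and OGA and between OGT and GFPT1. OGA thus stood last in OGD and in the middle of the order in the other groups.

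The ratio of OGT to OGA within a library, the writer of the mark over its eraser, was 0.736 ± 0.0443 in OGD/R, 3.38 ± 0.742 in OGD and 0.597 ± 0.116 in control (SD, n = 3 each). It ranged between 0.69 and 0.779 in OGD/R, between 2.64 and 4.12 in OGD and between 0.486 and 0.718 in control. OGT was thus above OGA in the 3 OGD libraries and below it in the other 6, and OGD/R and control overlapped. OGT itself overlapped both other groups in OGD. The fold change of OGA guided the choice of genes, so the ratio is no result separate from it. As for the isoenzymes, the length trend does not cancel, with longest transcripts of 7243 bases for OGT and 5155 for OGA. The ratio speaks of messages, and neither protein nor O-GlcNAc was measured.

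**Figure D3:**
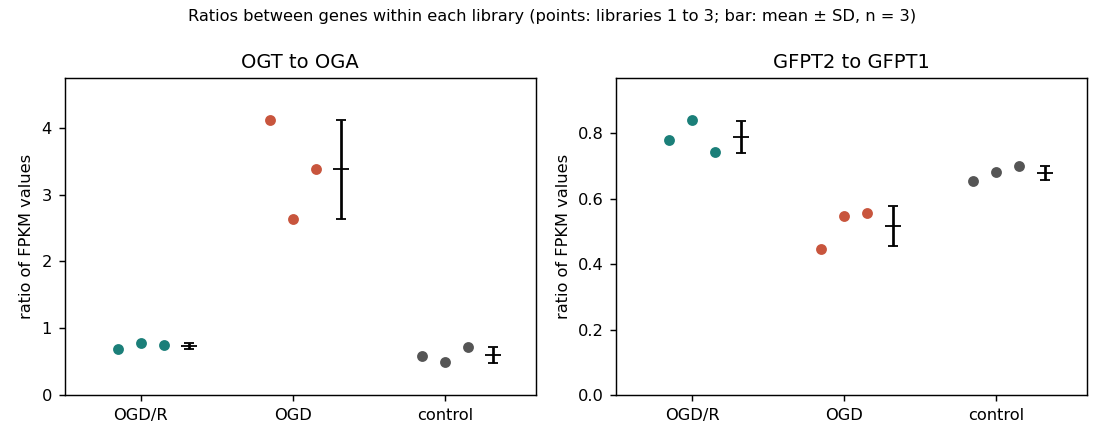
Ratio of FPKM values within each library (vertical axis, from 0) for OGT to OGA and for GFPT2 to GFPT1, with 1 point per library and the mean ± SD (n = 3 each). The OGT to OGA ratio lies above 2.6 in the OGD libraries and below 0.8 in all others, and the GFPT2 to GFPT1 ratio is lowest in OGD.

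The DNA just upstream of the start is shown for OGA and UAP1, which differed in opposite directions in OGD, and for GFPT1, whose rodent counterpart is a known target of XBP1 in heart muscle cells. XBP1 and ATF6, factors of the unfolded protein response, bind elements that hold CCACG or ACGT. Each sequence is the 250 bases before the outermost start of the gene, 5′ to 3′ on the strand of the gene, from RefSeq on GRCh38.p14, and capitals mark CCACG or ACGT on either strand. OGA is chr10:101818445-101818694 on the minus strand, UAP1 is chr1:162561281-162561530 on the plus strand and GFPT1 is chr2:69387228-69387477 on the minus strand.
OGA: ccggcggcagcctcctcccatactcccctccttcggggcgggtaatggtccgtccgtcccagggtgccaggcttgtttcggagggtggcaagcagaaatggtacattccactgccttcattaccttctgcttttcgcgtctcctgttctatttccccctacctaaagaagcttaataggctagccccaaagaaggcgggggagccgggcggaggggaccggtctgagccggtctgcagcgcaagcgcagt
UAP1: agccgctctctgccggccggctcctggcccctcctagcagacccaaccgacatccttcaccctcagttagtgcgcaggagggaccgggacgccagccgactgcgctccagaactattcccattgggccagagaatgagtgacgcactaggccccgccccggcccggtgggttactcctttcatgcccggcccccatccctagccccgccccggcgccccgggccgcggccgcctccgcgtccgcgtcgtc
GFPT1: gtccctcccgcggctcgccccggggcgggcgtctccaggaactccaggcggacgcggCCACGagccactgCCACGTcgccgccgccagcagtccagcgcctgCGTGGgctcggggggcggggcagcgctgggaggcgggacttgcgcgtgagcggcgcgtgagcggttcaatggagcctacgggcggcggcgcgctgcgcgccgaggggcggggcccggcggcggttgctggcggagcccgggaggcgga
All 7 genes had a window of 250 bases before to 50 after the outermost start, and only this window was searched. PGM3 had 2 windows and UAP1 had 3, so their other starts were not searched, while the shares below count all windows. On both strands CCACG was found 3 times in the window of GFPT1, 3 times in GFPT2, 2 times in OGT and 1 time in GNPNAT1, and 38.1% of 35116 windows in the RefSeq table held it, or 48.6% of 13175 windows of tested genes. In GFPT1 the matches began at -193, -180 and -148 from the start, and the match at -180 overlaps the ACGT at -178. Those of OGT began at -216 and -172. The matches of GFPT2, at 19, 28 and 37, and that of GNPNAT1, at 28, lay after the start. ACGT was found 1 time each in GFPT1, GNPNAT1, PGM3 and UAP1 (33.3% of all windows and 40.2% of those of tested genes), in UAP1 at 20 bases after the start and so outside the sequence shown. In GNPNAT1 and PGM3 it began at 30 and 33, also after the start. The ER stress response element, TGACGTGG, TGATGNAAT and the E-box CACGTG were found in none of the 7 windows searched. They were held by 0.0769%, 0.729%, 0.991% and 7.26% of all windows, and 0.137%, 0.85%, 0.516% and 9.37% of those of tested genes. The OGA window held none of the motifs searched. A match is a string of letters, not a shown site, and these data hold no measure of binding.

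The genes most like OGA over the 9 libraries, by Pearson r of log2(FPKM + 1) after median-of-ratios scaling among 7331 genes of at least 5 FPKM on average, were SCARA3 (r = 0.9952), CMPK2 (0.9936), SAMD9 (0.992), IFIT2 (0.9916) and POLA1 (0.9912). The 9 points share 3 groups, and r mostly reflects these. IFIT2, an interferon-stimulated gene, had 116, 134 and 119 FPKM in OGD/R, 45, 36 and 38.8 FPKM in OGD and 114, 104 and 107 FPKM in control. POLA1, the catalytic subunit of DNA polymerase alpha, had 6.95, 8.1 and 7.55 FPKM in OGD/R, 3.85, 3.76 and 3.76 FPKM in OGD and 7.73, 6.71 and 6.31 FPKM in control. In both genes the 3 OGD libraries were lowest. Of the other 6 pathway genes, UAP1 had r = -0.99 to OGA and stood 7295th of 7331, while GFPT2 had 0.65, GNPNAT1 0.02, OGT -0.17, GFPT1 -0.24 and PGM3 -0.66.

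The genes most like GFPT1 by the same measure were MLEC (r = 0.9529), AXL (0.9315), MFSD2A (0.9207), MAP1B (0.9182) and FRMD6 (0.9168). MFSD2A, a lipid transporter of brain endothelium, had 6.55, 7.4 and 7.4 FPKM in OGD/R, 5.63, 5.1 and 5.3 FPKM in OGD and 4.18, 4.77 and 3.67 FPKM in control, so that no 2 groups overlapped. OGT had r = 0.60 to GFPT1, GFPT2 0.49 and GNPNAT1 0.48.

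Around the 7 genes, 72 genes that supply the pathway, salvage or use its product, bind OGT or OGA, or regulate it were followed in 5 lists. Of these, 66 passed the filter, HAS2 and MLXIP among them through 1 group only. The counts below include both as called in every comparison of the main fit. Nothing is read from these calls, because passing the filter depended on the group where each gene was highest. The call held in 6 of 14 alternatives for HAS2 in OGD/R against control. For MLXIP in OGD against control it held in 7 of 14. The lists were also drawn up with earlier results known, and adjusted p-values are from limma over all 10818 genes. In OGD/R against OGD 35 rose and 14 fell, in OGD against control 13 rose and 33 fell, and in OGD/R against control 22 rose and 8 fell. The share called was 74.2%, 69.7% and 45.5%, against 70.7%, 58% and 41.2% of all tested genes. After median-of-ratios scaling the counts in the same order were 26 rising and 26 falling, 24 rising and 19 falling, and 23 rising and 12 falling. Among all 10818 tested genes they were 3854 higher and 3403 lower, 2684 and 2696, and 2558 and 2244.

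The 15 genes of substrate supply, which bring glucose, glutamine and UTP, had 11 higher and 3 lower calls in OGD/R against OGD and a median log2 fold change of 0.71, against 0.39 over all genes. In OGD against control 3 rose and 8 fell with a median of -0.33, against -0.31. The calls made up 93.3% of the list in OGD/R against OGD and 73.3% in OGD against control, against 70.7% and 58% of all tested genes. After median-of-ratios scaling 7 rose and 4 fell in OGD/R against OGD, and 5 rose and 4 fell in OGD against control. With this scaling 3854 of 10818 tested genes were called higher and 3403 lower in OGD/R against OGD. In OGD against control 2684 were higher and 2696 lower. HK1, a hexokinase, rose to 41.7 ± 4.07 FPKM in OGD/R, against 12.3 ± 0.78 FPKM in OGD (SD, n = 3 each; log2 fold change 1.68 ± 0.12, adjusted p = 3.35e-07), and was 19.9 ± 3.09 FPKM in control. GPI, the isomerase that makes fructose 6-phosphate, showed the same order with 64.7 ± 2.68 FPKM in OGD/R, 23.5 ± 0.97 FPKM in OGD and 39.7 ± 5.76 FPKM in control.

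SLC2A1, the glucose transporter GLUT1, was highest in OGD/R with 98.7 ± 6 FPKM, against 52.5 ± 2.03 FPKM in OGD and 43.2 ± 3.12 FPKM in control. Its rise in OGD against control (log2 fold change 0.28 ± 0.09, adjusted p = 0.0163 with limma) was lost without OGD replicate 1 (adjusted p = 0.0665). HK2, the inducible hexokinase, had 8 ± 0.546 FPKM in OGD/R, 5.46 ± 0.633 FPKM in OGD and 3.14 ± 0.531 FPKM in control, and median-of-ratios scaling ended its call in OGD/R against OGD (adjusted p = 0.288 with limma). CAD, which starts pyrimidine synthesis, rose to 8.05 ± 0.766 FPKM in OGD/R, against 2.69 ± 0.475 FPKM in control, and was 2.68 ± 0.0757 FPKM in OGD. NME1, a nucleoside diphosphate kinase that can form UTP, was, like UAP1, highest in OGD, with 205, 177 and 204 FPKM in OGD/R, 438, 477 and 453 FPKM in OGD and 212, 187 and 266 FPKM in control. NME1 shares sequence with a readthrough transcript into NME2, so its level is uncertain.

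The salvage and removal list had 10 tested genes, with 2 rising and 3 falling in OGD/R against OGD and 4 rising and 1 falling in OGD against control. The calls made up 50% of the list in each of these comparisons, against 70.7% and 58% of all tested genes. The median in OGD against control was 0.21, against -0.31 over all genes. After median-of-ratios scaling 0 rose and 6 fell in OGD/R against OGD, and 7 rose and 0 fell in OGD against control. All 10818 tested genes then had 3854 higher and 3403 lower calls, and 2684 and 2696, in the same order. RENBP, the GlcNAc epimerase, had 1.98, 1.89 and 2.35 FPKM in OGD/R, 3.49, 4.15 and 3.75 FPKM in OGD and 0.861, 1.21 and 2.75 FPKM in control, so OGD lay above both other groups (adjusted p = 0.00267 with limma against control). GNPDA2, which turns glucosamine 6-phosphate back to fructose 6-phosphate, fell to 14.6 ± 0.486 FPKM in OGD, against 21.8 ± 2.82 FPKM in control (SD, n = 3 each), and was 14 ± 1.79 FPKM in OGD/R. Median-of-ratios scaling ended the call in OGD (adjusted p = 0.0847 with limma).

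Of the enzymes and transporters that use UDP-GlcNAc or feed on its branches, 21 of 23 were tested. In OGD/R against OGD 7 rose and 5 fell, in OGD against control 4 rose and 9 fell, and in OGD/R against control 6 rose and 2 fell. These calls made up 57.1%, 61.9% and 38.1% of the list, against 70.7%, 58% and 41.2% of all tested genes. The median log2 fold changes were 0.15, -0.19 and 0.03, against 0.39, -0.31 and 0.07. The balance turned after median-of-ratios scaling, with 6 rising and 11 falling in OGD/R against OGD and 8 rising and 5 falling in OGD against control. It stood at 6 rising and 4 falling in OGD/R against control. Over all tested genes this scaling gave 3854 higher and 3403 lower calls, 2684 and 2696, and 2558 and 2244 in the same order. HAS2, a hyaluronan synthase, had 0.83 ± 0.045 FPKM in OGD/R, 2.16 ± 0.221 FPKM in OGD and 0.441 ± 0.118 FPKM in control. It passed the filter only through the OGD libraries, where it was highest, so no test is given for it, though the counts above include it. PIGA, which starts the GPI membrane anchor, rose to 9.94 ± 1.33 FPKM in OGD, against 4.64 ± 0.433 FPKM in control, and was 4.28 ± 0.229 FPKM in OGD/R. EOGT, the transferase that places O-GlcNAc on secreted proteins, fell to 7.86 ± 2.34 FPKM in OGD, against 18.0 ± 4.46 FPKM in control, and was 11.8 ± 1.49 FPKM in OGD/R.

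GNE, which opens the route to sialic acid, had 7.89, 11 and 9.71 FPKM in OGD/R, 4.47, 3.73 and 3.47 FPKM in OGD and 8.75, 13.8 and 5.59 FPKM in control. The OGD libraries were lowest, and the control libraries spread widely. EXT1, a heparan sulfate polymerase, rose to 22.0 ± 2.18 FPKM in OGD/R, against 8.11 ± 1.29 FPKM in control, and was 8.89 ± 0.316 FPKM in OGD. MGAT5, a branching enzyme of N-glycans, had 3.96 ± 0.47 FPKM in OGD/R, 1.12 ± 0.185 FPKM in OGD and 2.11 ± 0.276 FPKM in control. MGAT4B, another branching enzyme, had 76.5 ± 9.19 FPKM in OGD/R, 31.4 ± 1.61 FPKM in OGD and 50.8 ± 6.77 FPKM in control, and it overlaps SQSTM1, so reads may be shared.

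Among partners of OGT and OGA, 10 of 12 were tested, and 9 rose and 0 fell in OGD/R against OGD, while 0 rose and 9 fell in OGD against control. All tested genes leaned the same way, with 53.3% higher and 17.4% lower calls in OGD/R against OGD, and 11.3% higher and 46.7% lower calls in OGD against control. After median-of-ratios scaling 8 partners rose and 1 fell in OGD/R against OGD, and 0 rose and 6 fell in OGD against control. All 10818 tested genes then had 3854 higher and 3403 lower calls, and 2684 and 2696. With the length trend removed the counts were 5 rising and 2 falling for OGD/R against OGD, and 0 rising and 5 falling for OGD against control. Among all 10804 genes in that fit they were 3330 higher and 3333 lower, and 2298 and 2547. HCFC1, the host cell factor that OGT modifies and cleaves, had 8.83, 16.5 and 9.67 FPKM in OGD/R, 1.5, 3.19 and 1.46 FPKM in OGD and 3.68, 3.47 and 2.38 FPKM in control. Its OGD/R libraries were above all others (log2 fold change 2.05 ± 0.25 against OGD, adjusted p = 1.48e-05 with limma), and OGD and control overlapped. SIN3A, the corepressor that binds OGT, had 9.67 ± 1.39 FPKM in OGD/R, 2.80 ± 0.267 FPKM in OGD and 5.29 ± 0.128 FPKM in control. BAP1, the deubiquitinase bound to HCFC1, had 24.3 ± 3.54 FPKM in OGD/R, 11.1 ± 0.499 FPKM in OGD and 20.3 ± 4.31 FPKM in control.

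TRAK1, a mitochondrial motor adaptor modified by OGT, had 9.62 ± 0.259 FPKM in OGD/R, 3.76 ± 0.325 FPKM in OGD and 5.97 ± 1.77 FPKM in control, and median-of-ratios scaling ended its call in OGD against control (adjusted p = 0.204 with limma). CARM1, an arginine methyltransferase, had 23.5, 27.5 and 26.6 FPKM in OGD/R, 7.52, 6.41 and 8.65 FPKM in OGD and 23.9, 21.3 and 10.4 FPKM in control. The third control library lay nearer to OGD than to the other control libraries, and CARM1 overlaps YIPF2, so reads may be shared.

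Of 12 regulators, 11 were in the table and 10 were tested. In OGD/R against OGD 6 were rising and 3 falling, and in OGD against control 2 were rising and 6 falling. These calls made up 90% and 80% of the list, against 70.7% and 58% of all tested genes. The median log2 fold changes were 0.58 and -0.45, against 0.39 and -0.31. After median-of-ratios scaling the counts were 5 rising and 4 falling, and 4 rising and 4 falling. Among all 10818 tested genes they were then 3854 higher and 3403 lower, and 2684 and 2696. TXNIP, a glucose-responsive arrestin and target of MLXIP, had 16.0, 20.2 and 17.9 FPKM in OGD/R, 0.934, 1.09 and 1.22 FPKM in OGD and 19.5, 19.1 and 17.3 FPKM in control. Its 3 OGD libraries were far below the rest (log2 fold change -3.24 ± 0.12 against control, adjusted p = 9.82e-09 with limma). NR4A1, an immediate early nuclear receptor, had 13.6 ± 1.45 FPKM in OGD/R, 0.949 ± 0.277 FPKM in OGD and 4.32 ± 1.74 FPKM in control, and no 2 groups overlapped. ATF4, the effector of the integrated stress response, had 235, 249 and 248 FPKM in OGD/R, 534, 518 and 549 FPKM in OGD and 370, 292 and 336 FPKM in control, highest in OGD with no overlap.

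SP1, a zinc finger factor that carries O-GlcNAc, had 8.37 ± 1.07 FPKM in OGD/R, 3.16 ± 0.153 FPKM in OGD and 6.33 ± 0.718 FPKM in control. Its fall in OGD against control had an adjusted p of 0.000348 with limma, and its call in OGD/R against control (log2 fold change 0.35 ± 0.13, adjusted p = 0.047 with limma) was lost under 12 of 18 alternatives, with the sign kept in all 18. MLXIP, the glucose-sensing factor MondoA, had 2.28 ± 0.0671 FPKM in OGD/R, 0.37 ± 0.0952 FPKM in OGD and 0.805 ± 0.245 FPKM in control, below 1 FPKM in every OGD and control library. It passed the filter only through the OGD/R libraries, so no test is given for it, though the counts of regulators include it.

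**Figure D4:**
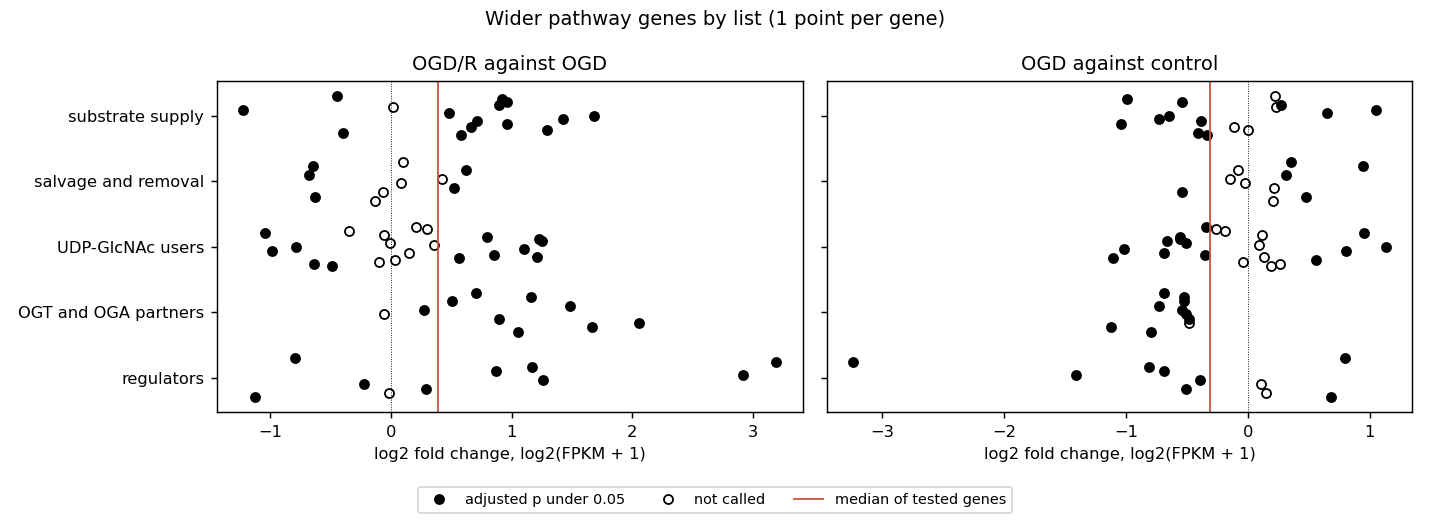
Log2 fold change (horizontal axis, log2 of FPKM + 1) of the 66 tested genes of the wider pathway by list, with 1 point per gene, filled where limma's adjusted p was under 0.05, and the median of all tested genes as a line. Partners of OGT and OGA lie above 0 in OGD/R against OGD but for 1 gene, and below 0 in OGD against control, where the all-gene medians are 0.39 and -0.31. The points include HAS2 and MLXIP, which passed the filter through 1 group only.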

How the data were processed

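Groups and replicate numbers were taken from sample titles. Libraries were made from 1.3 µg of total RNA with a SMARTER mRNA-Seq kit, per the labels' protocols. The authors deposited 1 FPKM value per gene and library, on build GRCh38 per the submitters' processing notes; no aligner, quantifier, annotation or use of strand is stated (not given in the sources used here). Low values showed no steps of whole reads, so depth is unknown and no counting error is given.

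Genes with at least 1 FPKM in 3 of 9 libraries (10818) entered limma 3.58.1 under R 4.3.3 as log2(FPKM + 1) (lmFit, eBayes with trend) in 1 fit of 3 groups with no further scaling, and p-values were adjusted by Benjamini-Hochberg over all genes of a comparison at a threshold of 0.05. Fold changes on this scale understate those of low genes. The 18 alternatives were median-of-ratios scaling, quantile normalization, removal of the length trend, another pseudocount (0.1), no filter, a filter of 5 FPKM, a robust prior, 2 groups only, a replicate block, and leaving out each library where it applied. Same-numbered samples showed no common deviation over all genes, so the block is not the main fit, though this check could not decide pairing. The fit was tested on simulated data with independent noise and known changes in some genes. The simulation held no shift or length trend common to many genes, so it does not bear on scaling. Coordinates, overlaps and promoters are RefSeq GRCh38.p14, which matched all 15570 genes, and transcript lengths are GENCODE 29 (99.6% of genes). The 7 genes, the lists and the tests were chosen with earlier results of these data known. Genes outside the 7 were named where called and changed by 1 or more on the log2 scale in any comparison, or among the 2 largest of their list in OGD against control; 1 gene that this rule names is not reported here. MGEA5, an older symbol of OGA, was not a row of its own, and ARRDC4 was not analysed here. Python 3.11.15 and matplotlib 3.10.9 drew the figures.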

Additional observations from a re-analysis of the deposited data

How the results depend on the processing

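Counts of called genes stayed within 1.5 times of the main count under all alternatives run, over all genes and over the wider pathway. Leaving out 1 library gave 6843 to 7894 called genes in OGD/R against OGD, 5142 to 6692 in OGD against control and 3318 to 4582 in OGD/R against control, and 42 to 49, 38 to 45 and 25 to 34 of the wider pathway genes. The share of calls that were higher depended on scaling. In OGD against control it was 19.4%, but 49.9% after median-of-ratios scaling, 47.2% after quantile normalization and 47.4% with the length trend removed. In OGD/R against OGD it was 75.4%, against 53.1%, 50.1% and 50% in the same order, and in OGD/R against control 59.9%, against 53.3%, 48.9% and 47.3%. With a replicate block 7452, 5956 and 4128 genes were called in OGD/R against OGD, OGD against control and OGD/R against control, and 48, 46 and 28 of the wider pathway genes. Correlations of same-numbered libraries lay between -0.2 and 0.148, with 1 of 9 over 0.1, and 2 of 9 libraries correlated best with their own number. No pairing by number was seen, but with 3 libraries per group this check could not decide whether the numbers pair samples. For the 7 genes, the refits used the same libraries that guided their choice. They therefore show dependence on processing only and lend the values no support. The calls for OGA and UAP1 in OGD/R against OGD and in OGD against control held in 18 of 18 alternatives. For OGA in OGD/R against control the call held in 15 of 18 and was lost with the length trend removed and without OGD/R replicate 2 or 3. GFPT2 in OGD against control held in 10 of 18. In OGD/R against OGD the call held in 14 of 18 for GFPT1, in 10 for OGT and in 6 for GNPNAT1. GFPT1 was called there in 15 of 18, so not always with the same sign. In OGD/R against control the call held in 13 for GFPT1 and in 16 for OGT. PGM3 in OGD/R against OGD was called, lower, in 2 of 18. GFPT1 in OGD against control was -0.01 and not called, but 0.29, 0.36 and 0.48 and called under median-of-ratios scaling, quantile normalization and removal of the length trend. Other values of the 7 genes that were not called also crossed 0, such as GNPNAT1 in OGD against control (-0.51 to 0.02). The sign also reversed in the following cases, and the cause was not tested. Quantile normalization gave log2 fold changes of 0.04 for GFPT2 in OGD against control, -0.07 for GFPT1 and -0.07 for HK2 in OGD/R against OGD, and -0.05 for GNE in OGD/R against control. With the length trend removed they were 0.02 for HCFC1 and 0.10 for MLXIP in OGD against control, -0.43 for GFPT1, -0.24 for OGT and -0.13 for HK2 in OGD/R against OGD, and -0.11 for GNE in OGD/R against control. Over fits that left out 1 library, values ranged from -0.07 to 0.10 for CAD in OGD against control, from -0.14 to 0.03 for GNPDA2 in OGD/R against OGD, and in OGD/R against control from -0.20 to 0.38 for GNE and from -0.13 to 0.03 for TXNIP, none of them called with all libraries. The within-library ratios use no pseudocount, a choice made after seeing the data. Depth is unknown, so low levels such as those of HAS2 and MLXIP carry no counting error.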
